A study of Homo sapiens with 6 samples.

Results

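The genes described here are the 39 sterol and fatty acid synthesis genes of a fixed list, taken by gene name from a table of 60835 gene names. Each had 1 row. They fall into a sterol arm of 22 genes and a fatty acid arm of 17, and all 39 passed the filter on low counts. The samples were 6 libraries of the established colon cancer line SW620 (human), grown in high-glucose medium with serum. Cells with a control short hairpin vector (shControl, 3 libraries, genotype given as WT) were set against cells with a stable hairpin vector against DNM1 (shDNM1, 3 libraries, genotype given as DNM1 knockdown), to find genes whose mRNA differs when dynamin 1 is lowered. The labels place every shControl library in batch_A and every shDNM1 library in batch_B. Batch and vector therefore cannot be told apart in any difference below. Gene positions given below are those of the deposited table, on GRCh38. The labels do not say whether the transduced cells were a pool or 1 clone. Whether replicates were separate cultures is not stated, so p-values reflect the spread among these libraries only, and that spread may be technical.

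Cholesterol is built from acetyl-CoA through the mevalonate pathway to farnesyl diphosphate, then through squalene and lanosterol. Fatty acids are built from the same acetyl-CoA by carboxylation and chain synthesis, then lengthened, desaturated and joined to glycerol. Both arms are controlled by SREBP transcription factors, which are held in the endoplasmic reticulum by SCAP and INSIG proteins when sterols are plentiful and are cut free when sterols fall. SREBF2 encodes the form that acts mainly on sterol genes, and SREBF1 encodes forms that act mainly on fatty acid genes.

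SREBPs bind a sterol regulatory element, so the RefSeq promoter windows (GRCh38.p14, 250 bases before to 50 after the start) of the list were searched on both strands for TCACNCCAC. Windows were found for 35 of the 39 genes (not for ACAT2, FASN, FDFT1 and SQLE), some with several starts. Of their 52 windows 2 held the motif, against 1.13% of all 35116 windows, 1 in SREBF2 and 1 in ACSL1. The SREBF2 window, the only one with the longer classical element, is shown with the motif in capitals.
SREBF2, chr22:41832855-41833154, plus strand: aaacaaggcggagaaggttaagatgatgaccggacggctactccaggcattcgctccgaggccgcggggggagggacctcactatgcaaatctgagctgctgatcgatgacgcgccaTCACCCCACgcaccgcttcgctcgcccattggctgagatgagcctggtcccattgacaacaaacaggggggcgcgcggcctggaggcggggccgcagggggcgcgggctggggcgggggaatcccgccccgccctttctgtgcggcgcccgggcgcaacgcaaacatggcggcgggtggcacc
In SREBF2 the match begins 133 bases before the start and, with the base before it, gives the longer classical element, which 0.0456% of all windows hold. The RefSeq start used lies 26 bases inside the SREBF2 gene of the deposited table. In ACSL1 the match is in 1 of 5 windows, at a start 21265 bases inside the gene of the deposited table, so that window is not shown. The CCAAT box, bound by a frequent partner factor of SREBPs, was present as CCAAT on either strand in 31 of the 52 windows, against 34.6% of all windows. Counted by gene, 27 of the 35 (16 sterol, 11 fatty acid) had it in at least 1 window, against 39.7% of 27305 genes, which differ in their number of windows. The GC box, CCGCCC on either strand, was in 42 of the 52 windows, against 45% of all windows. By gene it was in 33 of the 35, against 48.3%. A share above that of all windows was thus not particular to the CCAAT box. These matches describe the letters of the windows. Binding was not measured.

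Library totals ran from 12844534 to 13537519 counts, and replicate correlations of log2 CPM were at least 0.987. CPM are read counts scaled by TMM to a common library total. The targeted gene measured 127, 127 and 133 CPM in the shControl libraries and 126, 97.8 and 125 CPM in those labelled shDNM1 (adjusted p = 0.189, log2 fold change -0.15 with SE 0.083). The groups did not overlap, but the difference depends on single libraries: without shDNM1 replicate 2 it was -0.04 on the log2 scale (adjusted p = 0.718), and without shDNM1 replicate 1 it was -0.20 and was called (adjusted p = 0.0399). The 95% interval was -0.32 to 0.03. An exact permutation test, two-sided, gave p = 0.1, its minimum for 3 against 3. Because DNM1 mRNA did not pass the test over all 6 libraries, the second group is called the libraries labelled shDNM1. The epithelial markers EPCAM, KRT8, KRT18, CDH1 and VIL1 were abundant, KRT20 and LGALS4 had at most 18 counts in any library and the colon factor gene CDX1 had 0 counts in every library. Of 8 epithelial markers 6 exceeded 1 TPM in every library, with summed levels of 9010 to 9500 TPM in shControl and 10000 to 10700 TPM in the libraries labelled shDNM1. KRT8 and KRT18 made up most of that sum and rose (1.2-fold and 1.23-fold, adjusted p = 0.00408 and 0.00345), as did CDH1 (1.13-fold, adjusted p = 0.0441), while EPCAM fell (88.6% of control, adjusted p = 0.0288). Summed markers of other cells were low in both groups: 28.6 to 36.1 and 36.2 to 54.3 TPM for 6 fibroblast genes (COL3A1 at 0 counts), 6.84 to 9.01 and 2.57 to 4.21 TPM for 5 immune genes (CD3E and MS4A1 at 0), and 7.2 to 8.35 and 6.82 to 9.06 TPM for 4 endothelial genes (KDR at 0). Of these markers LUM, PDGFRB and VWF rose (1.39-fold, 2.66-fold and 1.41-fold, adjusted p = 0.0121, 0.000661 and 0.049). LYZ fell (45% of control, adjusted p = 0.00256), and COL1A1 and PECAM1 did not pass. LUM made up most of the fibroblast sum. The part of such other cells in the results was not tested. In bulk RNA, fewer cells of a type and less RNA per cell cannot be told apart.

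In the sterol arm 4 genes rose, 3 fell and 15 did not pass the test. In the fatty acid arm 5 rose, 6 fell and 6 did not pass. A gene is called at an adjusted p under 0.05 in edgeR's quasi-likelihood test over all 16744 genes tested. Of those genes 31.9% were called, 15.6% higher and 16.2% lower. The sterol arm count, 7 of 22, is close to this background. In the fatty acid arm 11 of 17 is a larger share, with no test of that difference. The members were chosen with earlier results of these data known, which may have affected both shares. The median log2 fold change was 0.09 in the sterol arm and 0.04 in the fatty acid arm, beside -0.01 over all genes. The median size of change regardless of direction was 0.14, 0.31 and 0.24. The groups did not overlap for 9 sterol genes (5 higher, 4 lower) and 13 fatty acid genes (7 higher, 6 lower), beside 44.3% of all genes, 21.2% higher and 23.1% lower. The sterol count depends on single libraries: without shControl replicate 1 only 2 genes rose, without shDNM1 replicate 1 there were 7, and without shControl replicate 3 only 1 fell. Without shDNM1 replicate 2, the library with the fewest genes of at least 10 counts (16347 against 16771 to 16896), 4 sterol genes rose and 3 fell, and 4 fatty acid genes rose and 6 fell.

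**Figure D1:**
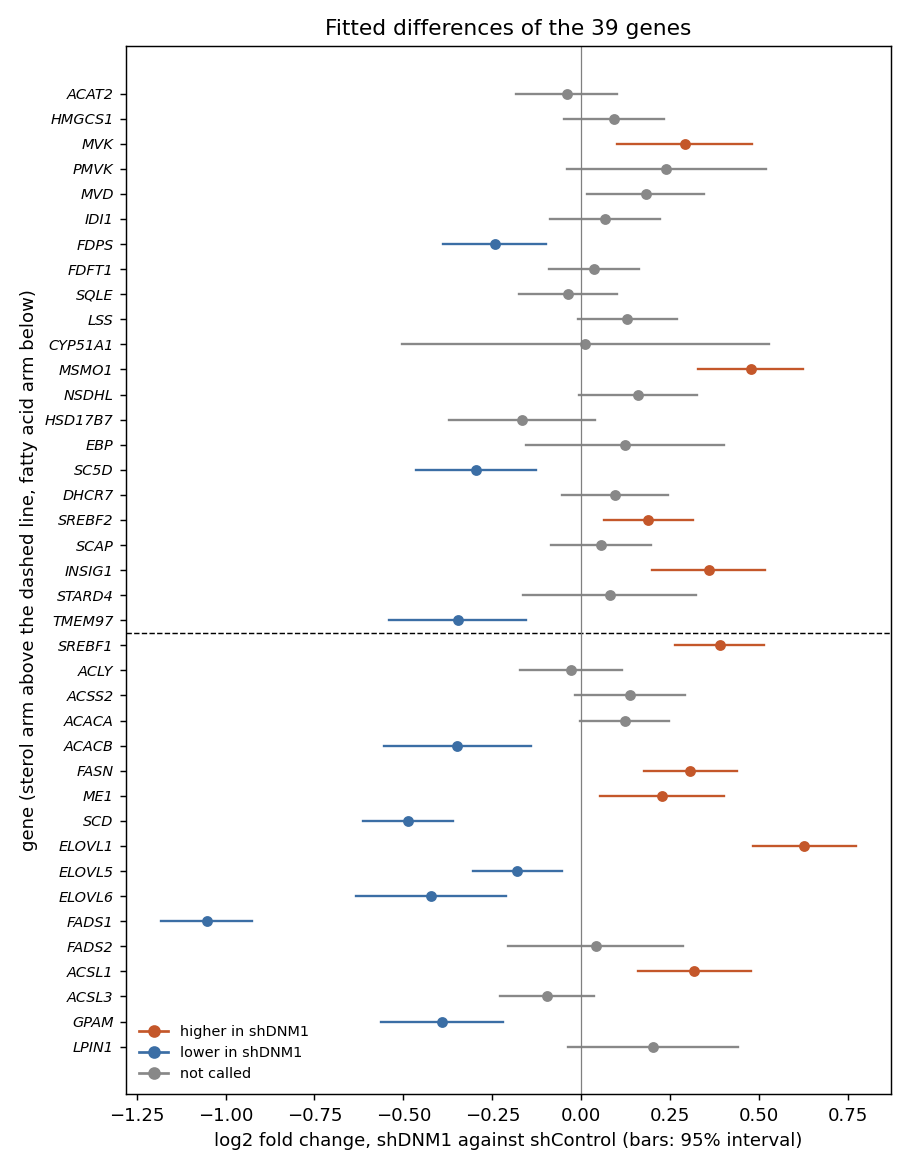
Log2 fold change (horizontal axis) with its 95% interval for each of the 39 genes, sterol arm above the dashed line and fatty acid arm below, coloured by call. FADS1 lies furthest from 0 at -1.05, and most sterol genes lie within 0.2 of 0.

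Of the 7 mevalonate genes 1 rose, 1 fell and 5 did not pass. ACAT2 and HMGCS1, which join acetyl-CoA units into the entry compound, did not pass. Their log2 fold changes were -0.04 (95% interval -0.18 to 0.10) and 0.09 (-0.05 to 0.23). Of the kinases that follow, MVK rose. MVK measured 33.0, 33.3 and 39.4 CPM in the shControl libraries and 40.5, 46.4 and 42.4 CPM in those labelled shDNM1 (1.22-fold higher, adjusted p = 0.0191, log2 fold change 0.29 with SE 0.09). The lowest library labelled shDNM1 was just above the highest shControl library. Leaving out shControl replicate 1, shControl replicate 2 or shDNM1 replicate 2 ended the MVK call (adjusted p = 0.087, 0.0916 and 0.0762), as did either log TPM scale. PMVK, the next kinase, measured 16.3 ± 1.66 and 19.2 ± 3.27 CPM (SD, n = 3; adjusted p = 0.184, log2 fold change 0.24 with SE 0.13), and the decarboxylase gene MVD 64.3 ± 4.11 and 72.9 ± 5.99 CPM (adjusted p = 0.0862, log2 fold change 0.18 with SE 0.078). Neither passed. Each was called with 1 library left out, PMVK without shDNM1 replicate 1 (adjusted p = 0.0171) and MVD without shDNM1 replicate 2 (adjusted p = 0.0196). IDI1, which isomerises the isoprene unit, had a log2 fold change of 0.07 (-0.09 to 0.22). FDPS, which makes farnesyl diphosphate, fell. FDPS measured 112, 111 and 119 CPM in the shControl libraries and 89.4, 103 and 95.7 CPM in those labelled shDNM1, with no overlap (84.5% of control, adjusted p = 0.0112, log2 fold change -0.24 with SE 0.069), a call lost without shControl replicate 3 (adjusted p = 0.0646). FDPS shares 18.6% of its exonic bases with the antisense gene RUSC1-AS1, and MVK 4.72% with MMAB. Whether counting used strand is not given, so these counts are uncertain, as is that of ACAT2, which overlaps SOD2 and TCP1.

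Among the 10 genes from squalene to cholesterol, MSMO1 rose, SC5D fell and 8 did not pass. MSMO1 encodes the oxidase that starts removal of the methyl groups at carbon 4 of the sterol ring (ENSG00000052802, chromosome 4, 165327667 to 165343164). MSMO1 measured 85.1, 82.4 and 94.7 CPM in the shControl libraries and 128, 119 and 118 CPM in those labelled shDNM1. All libraries labelled shDNM1 lay well above all shControl libraries (1.39-fold higher, adjusted p = 4.6e-05, log2 fold change 0.48 with SE 0.07). NSDHL, which acts on the same methyl groups, measured 42.9, 40.1 and 40.7 CPM in shControl and 43.6, 49.3 and 45.3 CPM in the other group. Its groups did not overlap but it did not pass (adjusted p = 0.138, log2 fold change 0.16 with SE 0.079). The third enzyme of that complex, HSD17B7, had 26.9 ± 2.49 and 24.0 ± 0.197 CPM (SD, n = 3; adjusted p = 0.207, log2 fold change -0.17 with SE 0.097). SC5D, the desaturase of carbon 5 in the sterol ring, measured 69.7, 75.9 and 79.4 CPM in shControl and 67.6, 58.4 and 57.2 CPM in the libraries labelled shDNM1. Replicate 1 of the latter was only just below the lowest control (81.5% of control, adjusted p = 0.00838, log2 fold change -0.30 with SE 0.08). The SC5D call was lost without shControl replicate 3 or shDNM1 replicate 3 (adjusted p = 0.0583 and 0.0559).

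The entry enzymes of this segment did not pass. FDFT1, which makes squalene, was the most abundant sterol gene per length (373 TPM in shControl) and had a log2 fold change of 0.04 (-0.09 to 0.16). SQLE, the epoxidase that is a flux-controlling step, had -0.04 (-0.18 to 0.10), and LSS, which closes the rings, 0.13 (-0.01 to 0.27). DHCR7, the last reductase, measured 207, 209 and 199.7 CPM in shControl and 194, 236 and 226 CPM in the other group, where replicate 1 was below and replicates 2 and 3 above every control. LSS and DHCR7 were called higher without shDNM1 replicate 1 (adjusted p = 0.025 and 0.0166). EBP, a sterol isomerase, had 0.12 (-0.16 to 0.40). CYP51A1, the lanosterol demethylase, was the least abundant of the 39 genes at 4.77 TPM in shControl, with 44 counts in its lowest library. Its 95% interval, -0.51 to 0.53, was the widest of the 39, and a change within it was not detectable at this depth. In GENCODE 29, 79.4% of its exonic bases are shared with another gene model on the same strand. The name of that model is absent from the deposited table. The pseudogenes CYP51A1P1, CYP51A1P3 and CYP51A1P2 had 2.84%, 4.38% and 9.54% as many counts as CYP51A1. The CYP51A1 count is therefore uncertain.

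Of the sterol sensing and transport genes, SREBF2 and INSIG1 rose, TMEM97 fell, and SCAP and STARD4 did not pass. INSIG1, which retains the SCAP-SREBP complex in the endoplasmic reticulum and is itself an SREBP target (ENSG00000186480, chromosome 7, 155297776 to 155310235), was the clearest. INSIG1 measured 106, 124 and 131 CPM in the shControl libraries and 160.1, 156 and 146 CPM in those labelled shDNM1, so every library labelled shDNM1 was above every control (1.28-fold higher, adjusted p = 0.00135, log2 fold change 0.36 with SE 0.076). SREBF2 measured 364, 379 and 371 CPM in the shControl libraries and 401, 433 and 434 CPM in those labelled shDNM1 (1.14-fold higher, adjusted p = 0.0217, log2 fold change 0.19 with SE 0.06). This small difference did not overlap, but leaving out shControl replicate 1, shControl replicate 3 or shDNM1 replicate 3 ended the call (adjusted p = 0.0759, 0.094 and 0.0886), as did either log TPM scale. SREBF2 is the gene whose window holds the longer element shown above. TMEM97, a sterol-responsive membrane protein gene, measured 39.3, 40.4 and 42.6 CPM in shControl and 31.1, 36.1 and 28.9 CPM in the other group (78.6% of control, adjusted p = 0.00701, log2 fold change -0.35 with SE 0.091). It shares 11.9% of its exonic bases with IFT20 on the opposite strand. The SREBP escort gene SCAP had 0.06 (-0.09 to 0.20). STARD4, a cytosolic sterol carrier gene, ranged from 86.4 to 112 CPM in shControl and from 86.7 to 131 CPM in the other group, the widest relative spread of this segment.

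**Figure D2:**
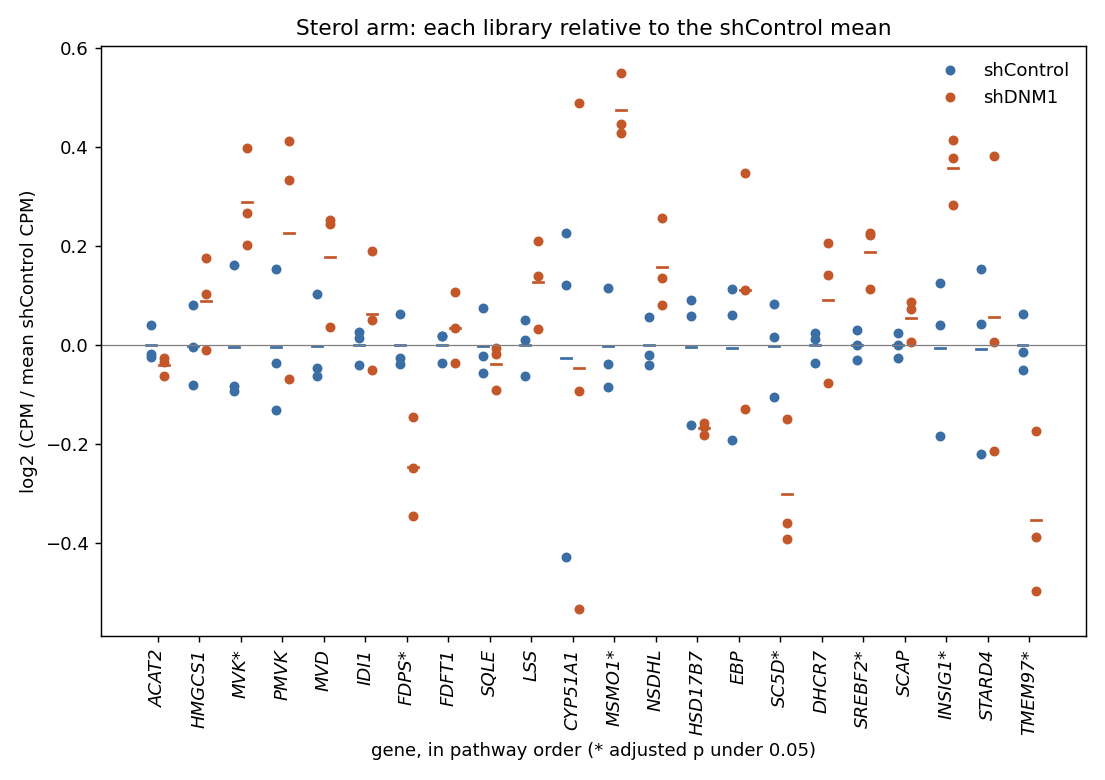
Log2 ratio of each library's CPM to the shControl mean (vertical axis) for the 22 sterol genes in pathway order, 1 point per library and a line at the mean of the 3 log2 ratios of each group, with called genes starred. Points of the groups separate clearly for MSMO1 and INSIG1 above 0 and for FDPS and TMEM97 below it, and intermingle for most others.

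The fatty acid arm moved in both directions, with a larger median size of change than the sterol arm. SREBF1, its regulator (ENSG00000072310, chromosome 17, 17810399 to 17837002), rose. SREBF1 measured 269, 279 and 267 CPM in the shControl libraries and 341, 363 and 364 CPM in those labelled shDNM1, with no overlap (1.31-fold higher, adjusted p = 6.43e-05, log2 fold change 0.39 with SE 0.059). SREBF1 shares 6.92% of its exonic bases with RAI1 on the opposite strand. The ratio of SREBF2 to SREBF1 on the TPM scale was 1.16, 1.17 and 1.19 in shControl and 1.01, 1.03 and 1.02 in the libraries labelled shDNM1. This ratio was chosen after the values were seen and was not tested.

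Of the 6 genes for acetyl-CoA supply and chain synthesis, FASN and ME1 rose, ACACB fell, and ACLY, ACSS2 and ACACA did not pass. FASN encodes the multifunctional enzyme that builds palmitate (ENSG00000169710, chromosome 17, 82078338 to 82098294). FASN measured 1038, 1002 and 1031 CPM in the shControl libraries and 1168, 1323 and 1307 CPM in those labelled shDNM1 (1.24-fold higher, adjusted p = 0.001, log2 fold change 0.31 with SE 0.063). Even its lowest library labelled shDNM1 exceeded every control. ACACA, the cytosolic carboxylase that makes the malonyl-CoA used by FASN, measured 215 ± 6.82 and 234 ± 5.58 CPM (SD, n = 3). Its groups did not overlap, but it did not pass (adjusted p = 0.13, log2 fold change 0.12 with SE 0.059). ACACB, the carboxylase at the mitochondrial surface, whose malonyl-CoA restrains fatty acid import, measured 27.1, 28.4 and 31.3 CPM in shControl and 21.7, 24.6 and 21.9 CPM in the other group (78.6% of control, adjusted p = 0.0109, log2 fold change -0.35 with SE 0.098). Its call was lost without shControl replicate 3 (adjusted p = 0.0752), with log2(TPM + 1) (0.0577) and with log2(TPM + 0.1) (0.0555). The cytosolic acetyl-CoA sources ACLY, from citrate, and ACSS2, from acetate, had log2 fold changes of -0.03 (-0.17 to 0.11) and 0.14 (-0.02 to 0.29). ME1, a source of NADPH, measured 35.8, 36.0 and 35.8 CPM in shControl and 38.4, 45.0 and 42.5 CPM in the other group (adjusted p = 0.0446, log2 fold change 0.23 with SE 0.083). The ME1 call was the least stable of the 39 genes and was lost in 12 of 17 other settings. Among these was leaving out any library except shDNM1 replicate 1 (adjusted p = 0.103, 0.103 and 0.133 without shControl replicates 1, 2 and 3, and 0.156 and 0.105 without shDNM1 replicates 2 and 3).

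Elongation and desaturation genes held the largest differences: 1 rose, 4 fell and 1 did not pass. FADS1, the delta-5 desaturase of polyunsaturated fatty acid synthesis (ENSG00000149485, chromosome 11, 61799627 to 61829318), measured 178, 179 and 183 CPM in shControl and 85.3, 87.3 and 87.6 CPM in the libraries labelled shDNM1. The libraries within each group lay close together and the groups were far apart (48.2% of control, adjusted p = 7.74e-10, log2 fold change -1.05 with SE 0.061). FADS2, the delta-6 desaturase gene, lies on the opposite strand, and its deposited span (61792980 to 61867354) holds that of FADS1. FADS2 measured 14.9, 17.5 and 16.7 CPM in shControl and 18.0, 15.5 and 16.9 CPM in the other group, which overlapped (adjusted p = 0.83, log2 fold change 0.04 with SE 0.12, 95% interval -0.21 to 0.29). The ratio of FADS1 to FADS2 on the TPM scale was 13.9, 11.9 and 12.8 in shControl and 5.5, 6.53 and 6.04 in the other group. It was chosen after the values were seen and was not tested. In GENCODE 29 the genes share 490 exonic bases, and FADS2 had 12.4% as many counts as FADS1. FADS2 also shares 49 exonic bases with FEN1 on the same strand, which had 860% as many counts as FADS2. Without a known strand setting the FADS2 count is uncertain.

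SCD, the delta-9 desaturase that makes oleate from stearate (ENSG00000099194, chromosome 10, 100347233 to 100364826), was the most abundant of the 39 genes at 1301 TPM in shControl. SCD measured 2194, 2259 and 2268 CPM in the shControl libraries and 1525, 1677 and 1593 CPM in those labelled shDNM1 (71.3% of control, adjusted p = 6.36e-06, log2 fold change -0.49 with SE 0.06). The highest library labelled shDNM1 was far below the lowest control. Of the elongases, ELOVL1, which acts on saturated and monounsaturated very long chains (ENSG00000066322, chromosome 1, 43363398 to 43368074), rose. ELOVL1 measured 73.4, 68.3 and 65.1 CPM in the shControl libraries and 104, 110.3 and 105 CPM in those labelled shDNM1 (1.54-fold higher, adjusted p = 1.8e-06, log2 fold change 0.63 with SE 0.069). ELOVL6, which lengthens palmitate to stearate, fell, from 47.2, 38.2 and 43.6 CPM to 30.1, 36.6 and 29.5 CPM (74.6% of control, adjusted p = 0.00328, log2 fold change -0.42 with SE 0.1), with shDNM1 replicate 2 close to the lowest control. ELOVL5, which lengthens polyunsaturated chains, measured 196 ± 1.07 and 173 ± 6.46 CPM (SD, n = 3; adjusted p = 0.0281, log2 fold change -0.18 with SE 0.06). That call was lost without any 1 of the shControl replicates (adjusted p = 0.0885, 0.0787 and 0.0814 without replicates 1, 2 and 3) or without shDNM1 replicate 3 (adjusted p = 0.0846), and with no low-count filter (adjusted p = 0.0507).

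Of the activation and glycerolipid genes, ACSL1 rose, GPAM fell, and ACSL3 and LPIN1 did not pass. ACSL1 and ACSL3 encode enzymes that attach CoA to long-chain fatty acids. ACSL1 measured 64.2, 68.7 and 60.1 CPM in the shControl libraries and 76.5, 86.5 and 77.5 CPM in those labelled shDNM1 (1.25-fold higher, adjusted p = 0.00347, log2 fold change 0.32 with SE 0.076). ACSL3 measured 179.8 ± 4.06 and 168 ± 9.30 CPM (SD, n = 3; adjusted p = 0.262, log2 fold change -0.10 with SE 0.063). GPAM, the mitochondrial acyltransferase that starts glycerolipid synthesis, measured 37.9, 37.9 and 36.6 CPM in shControl and 29.4, 27.9 and 28.4 CPM in the other group, with no overlap (76.2% of control, adjusted p = 0.00124, log2 fold change -0.39 with SE 0.082). LPIN1, a phosphatidate phosphatase gene, had a log2 fold change of 0.20 (-0.04 to 0.44). Its groups did not overlap, at 14.2, 14.1 and 14.9 CPM in shControl and 15.8, 17.1 and 16.8 CPM in the libraries labelled shDNM1.

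**Figure D3:**
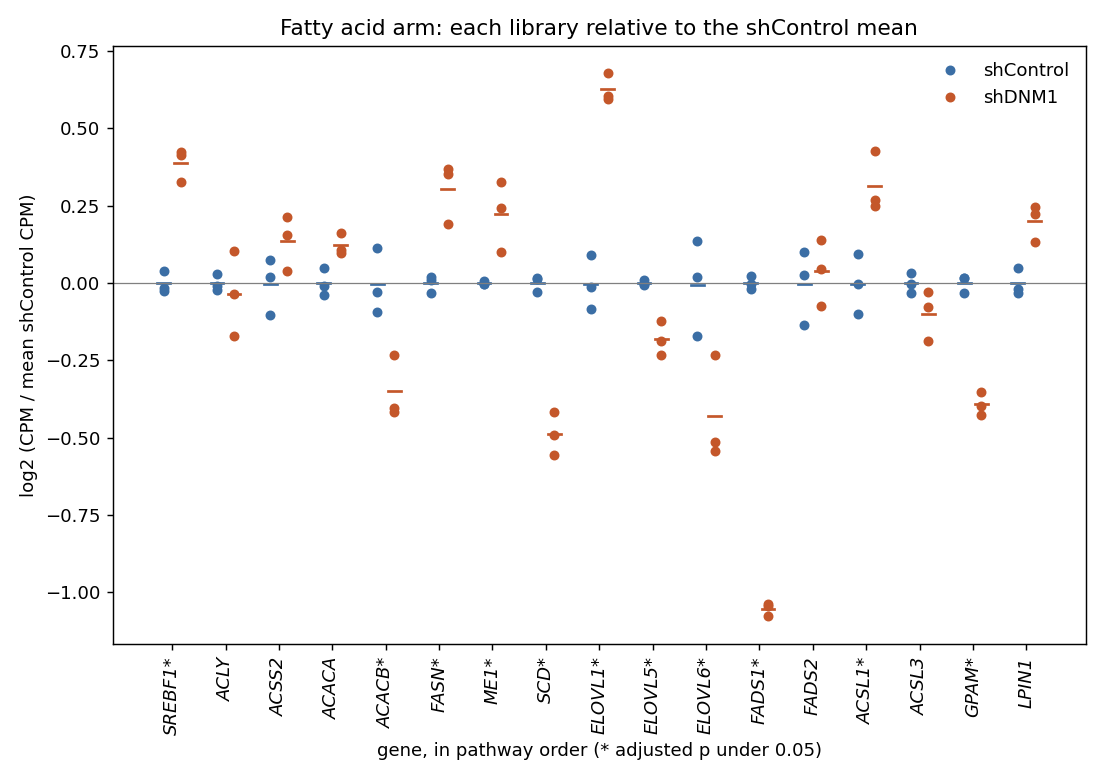
Log2 ratio of each library's CPM to the shControl mean (vertical axis) for the 17 fatty acid genes, drawn as for the sterol arm. FADS1 stands alone near -1, SCD, GPAM and ELOVL6 lie lower, and ELOVL1, SREBF1, FASN and ACSL1 lie higher, with replicates close together for most.

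Summed over the 22 sterol genes, the level was 2189 ± 55.4 TPM in shControl and 2239 ± 15.3 TPM in the libraries labelled shDNM1 (SD, n = 3). These TPM ranges overlapped. The sterol CPM sums did not: 2224, 2238 and 2331 in shControl against 2390, 2464 and 2404 in the other group. The sterol overlap thus depends on the scale. Over the 17 fatty acid genes the level was 2907 ± 19.9 and 2561 ± 53.9 TPM, with no overlap. Their CPM sums did not overlap either: 5030, 5073 and 5095 in shControl against 4445, 4884 and 4703 in the other group. Without SCD the fatty acid sums were 1606 ± 22.3 and 1669.8 ± 37.7 TPM, which overlapped, so SCD carried the lower sum. On the CPM scale, with the SCD values given above taken off, every library labelled shDNM1 was above every shControl library. The overlap without SCD thus also depends on the scale. These sums describe the libraries and were not tested.

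**Figure D4:**
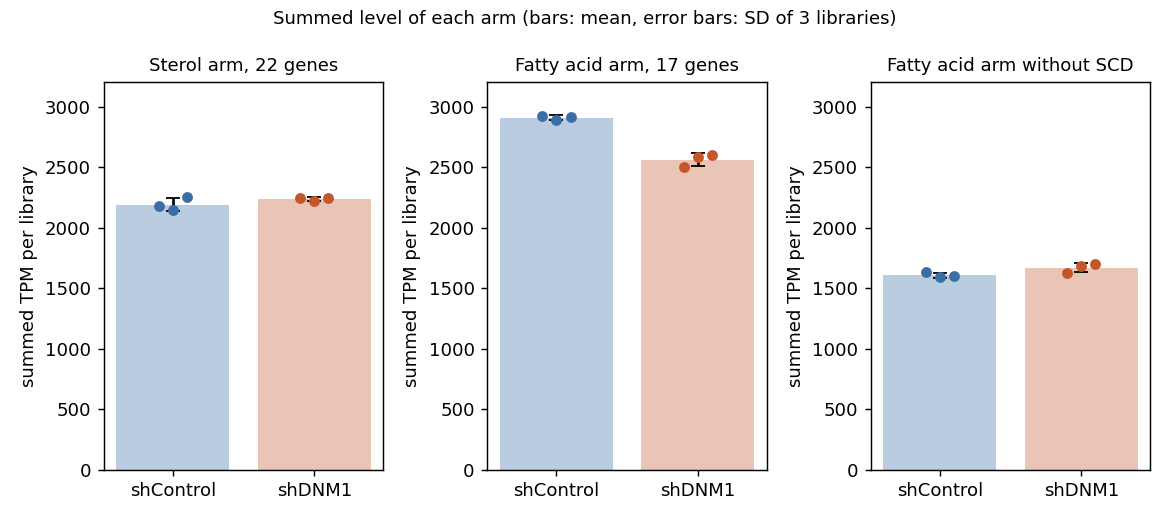
Summed TPM per library for the sterol arm, the fatty acid arm and the fatty acid arm without SCD. Bars are means of 3 libraries, error bars are SDs and points are libraries. On this TPM scale only the sum that includes SCD separates the groups. On the CPM scale, not drawn, the sterol sums and the fatty acid sums without SCD also separate them.

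Genes around these arms were counted from lists that hold no member. Of 26 genes for SREBP processing, sterol esterification and movement, 25 were tested, 6 rose and 5 fell. ERLIN1, which takes part in degradation of sterol-regulated proteins in the endoplasmic reticulum, fell from 75.7 ± 4.35 to 30.6 ± 2.79 CPM (SD, n = 3; adjusted p = 2.83e-09), and MBTPS1, the first protease that cuts SREBPs, from 136 ± 8.80 to 112 ± 5.52 CPM (adjusted p = 0.00389). NR1H2, the sterol receptor LXR-beta, rose from 35.7 ± 0.902 to 54.9 ± 4.27 CPM (adjusted p = 1.17e-05), and the sterol exporter gene ABCG1 from 3.18 ± 0.268 to 5.92 ± 0.404 CPM (adjusted p = 0.00181). This count was 5 without shControl replicate 3 and 7 without shDNM1 replicate 2, in place of 11. Of 24 other fatty acid synthesis, supply and storage genes, 20 were tested, 4 rose and 6 fell. PLIN2, the coat protein of lipid droplets, fell from 179.9 ± 6.05 to 107 ± 5.77 CPM (adjusted p = 9.43e-08), and MLXIPL, the carbohydrate-responsive factor ChREBP, from 29.4 ± 1.45 to 17.8 ± 1.24 CPM (adjusted p = 2.06e-05). LPIN2 and AGPAT2, which act on the path to triglyceride, rose 1.27-fold and 1.31-fold (adjusted p = 0.000426 and 0.000528). Of 22 fatty acid oxidation genes, 21 were tested, 4 rose and 4 fell. HADH and EHHADH, dehydrogenases of mitochondria and peroxisomes, fell to 59.6% and 66.1% of control (adjusted p = 1.1e-05 and 0.000797). The receptor gene PPARD and the electron transfer gene ETFDH rose 1.3-fold and 1.25-fold (adjusted p = 0.00443 and 0.0142). The shares called, 11 of 25, 10 of 20 and 8 of 21, stand beside the background of 31.9%. These lists too were chosen with earlier results of these data known, which may have affected the shares.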

How the data were processed

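RNA of 6 SW620 libraries was sequenced, with extraction by an RNeasy kit and library preparation by a SMARTER mRNA-seq kit per the labels' protocols. Read counts per gene were used as the authors deposited them, as unscaled whole numbers. The genome build was GRCh38 per the submitters' processing notes. Aligner, counter, annotation release and strand setting: not given in the sources used here. The deposited TPM table, made by the authors, was recorded as a score. Each column sums to 1000000 over unique gene names and to more over all lines. Of 62710 lines, 2328 shared 453 names with identical values and were collapsed to 1 per name. No per-sample column was left unused.

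Groups came from the sample titles. Counts were compared with edgeR 4.0.16 in R 4.3.3 (filterByExpr, TMM, glmQLFit and glmQLFTest, two-sided, Benjamini-Hochberg adjustment over 16744 genes, threshold 0.05). Intervals are 95%. SE was the log2 fold change divided by the square root of F. The batch given in the labels coincides with the group, so no batch term could be fitted. Levels between genes are compared on the TPM scale. The named genes were DNM1, all 39 members and, for each other list, the 2 smallest p in each direction among called genes. The members and lists were chosen with earlier results of these data known. The test was tested on simulated data. Alternatives used other scalings, filters, DESeq2 1.42.0, limma 3.58.1 (voom, and log2(TPM + 1) or log2(TPM + 0.1)), a robust fit, a threshold of 0.01, a replicate block and leaving out each library. Promoter sequences are from RefSeq (GRCh38.p14), and gene overlaps from GENCODE 29, also GRCh38, where 15 of the 39 members had the start and end of the deposited table.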

Additional observations from a re-analysis of the deposited data

How the results depend on the processing

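Of the 18 called genes, MSMO1, INSIG1, TMEM97, SREBF1, FASN, SCD, ELOVL1, ELOVL6, FADS1, ACSL1 and GPAM kept direction and call under all 17 other settings run for single genes. Among these, TMEM97 came closest to the threshold, with an adjusted p of up to 0.0495. With a threshold of 0.01, 3503 genes were called in all (1739 higher, 1764 lower), with 2 sterol genes higher, 4 other sterol handling genes and 5 oxidation genes. On either TPM scale 2 sterol genes rose and 7 other sterol handling genes were called, and 38.8% of all calls were higher, against 49.0% with TMM. Leaving out 1 library gave 2 to 7 sterol genes higher and 1 to 3 lower, 4 to 5 fatty acid genes higher and 4 to 6 lower, 5 to 13 other sterol handling, 8 to 11 other fatty acid and 6 to 9 oxidation genes called, 3990 to 5890 genes in all (1903 to 2939 higher, 2034 to 2951 lower), and for DNM1 a log2 fold change of -0.2049 to -0.0373, called without shDNM1 replicate 1 (adjusted p = 0.0399).

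Sign changes touched only genes that did not pass. CYP51A1 had log2 fold changes of -0.005949 with upper quartile scaling, -0.02722 with library size alone, -0.02419 with limma-voom, -0.05975 with log2(TPM + 1) and -0.07519 with log2(TPM + 0.1). FDFT1 had -0.000534 with library size alone and -0.02314 and -0.0232 on the TPM scales, SCAP -0.00313 and -0.00319, and FADS2 -0.01535 and -0.01699. With 1 library left out, the ranges were -0.2947 to 0.2241 for CYP51A1, -0.000262 to 0.0728 for FDFT1, -0.01647 to 0.09323 for FADS2, -0.09654 to 0.206 for STARD4, -0.003913 to 0.2352 for EBP and -0.101 to 0.03867 for ACLY. The cause was not tested.

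The replicate numbers share no stated source, and the deviations of same-numbered libraries correlated at 0.102, 0.0634 and -0.033, so they were not taken as pairs. Not every library correlated best with its own number. With the replicate block, 6080 genes were called in place of 5337, with 5 sterol genes higher and 3 lower and 5 fatty acid genes higher and 6 lower. In that fit CYP51A1 had -0.00284 and MVD was called. Low counts limit CYP51A1 most.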
